A study of Mus musculus with 8 samples.

Results

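The Ifit and Ifitm genes are 2 families of antiviral effectors that interferons switch on. Here 7 members are described in leukemic mouse bone marrow, chosen by gene symbol from the 23997 genes of the table: Ifit1, Ifit2 and Ifit3, and Ifitm1, Ifitm2, Ifitm3 and Ifitm6. RNA was sequenced in bulk from 8 marrows in 3 groups. Marrow of C57BL/6 mice taken 4 days after 5FU (5-fluorouracil, which kills cycling cells) was cultured in IL3, IL6 and SCF, transduced, and transplanted 48 hours later into lethally irradiated mice. RNA was taken once the recipients had died of leukemia. The AE+Meis2 group (n = 3, median latency 171 days) carried AML1-ETO, the fusion of the blood transcription factor RUNX1 with the corepressor ETO, together with the homeobox factor Meis2. The AE9a+Meis2 group (n = 3, 102 days) carried AML1-ETO9a, a shorter splice form of the fusion, with Meis2. The AE9a group (n = 2, 138 days) carried AML1-ETO9a alone. All 3 groups shared the 5FU treatment, the culture and the transplant, and no normal marrow and no AML1-ETO without Meis2 was analysed here. The labels do not name the vector or its promoter, and they do not say whether replicates came from separate donors or transductions, so p-values measure only the spread between these libraries.

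Type I interferons bind a receptor made of IFNAR1 and IFNAR2. The kinases JAK1 and TYK2 then activate STAT2, which joins IRF9 in a complex that binds the interferon-stimulated response element (ISRE) in promoters. Ifit proteins are soluble cytoplasmic proteins built of tetratricopeptide repeats. Ifit1 binds viral RNA whose cap lacks the host's ribose methylation, Ifit2 has antiviral and pro-apoptotic roles, and human IFIT3 binds and stabilises human IFIT1. Ifitm proteins are small membrane proteins that hinder fusion of enveloped viruses with the cell. Ifitm3 and Ifitm2 sit mainly in endosomes and lysosomes and Ifitm1 mainly at the cell surface, and Ifitm1 and Ifitm3 are also known as markers of germ cell precursors and stem cells.

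The 3 Ifit genes are neighbours on chromosome 19 and the 4 Ifitm genes on chromosome 7. The promoters are shown for the pair of Ifit genes that varied together most closely, and for 3 Ifitm genes that did not follow them. Each window runs from 250 bases before the gene's RefSeq start to 50 bases after it, on build GRCm38.p6. It is printed on the strand of the gene. Capitals mark the ISRE core, GAAA, any 2 bases and GAAA again, searched on both strands, which reads as TTTC, 2 bases and TTTC where the match is on the opposite strand.
Ifit1, chr19:34640639-34640938, plus strand: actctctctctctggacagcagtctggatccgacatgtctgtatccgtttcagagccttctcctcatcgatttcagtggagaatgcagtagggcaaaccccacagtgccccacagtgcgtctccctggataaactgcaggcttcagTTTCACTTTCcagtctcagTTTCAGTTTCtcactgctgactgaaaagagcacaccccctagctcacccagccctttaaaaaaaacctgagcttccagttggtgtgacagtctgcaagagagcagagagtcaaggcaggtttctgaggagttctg
Ifit3, chr19:34583279-34583578, plus strand: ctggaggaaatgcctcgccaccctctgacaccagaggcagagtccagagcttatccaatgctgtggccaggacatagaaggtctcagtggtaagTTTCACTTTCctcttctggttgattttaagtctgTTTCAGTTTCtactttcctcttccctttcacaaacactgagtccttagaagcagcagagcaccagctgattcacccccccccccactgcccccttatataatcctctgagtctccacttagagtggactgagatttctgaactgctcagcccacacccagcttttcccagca
Ifitm3, chr7:141010695-141010994, minus strand: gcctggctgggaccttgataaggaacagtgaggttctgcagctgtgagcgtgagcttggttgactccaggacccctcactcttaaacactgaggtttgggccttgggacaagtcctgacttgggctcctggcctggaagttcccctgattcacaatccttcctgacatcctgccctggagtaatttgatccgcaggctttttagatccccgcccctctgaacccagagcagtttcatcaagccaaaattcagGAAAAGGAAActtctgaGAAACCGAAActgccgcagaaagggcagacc
Ifitm2, chr7:140955912-140956211, minus strand: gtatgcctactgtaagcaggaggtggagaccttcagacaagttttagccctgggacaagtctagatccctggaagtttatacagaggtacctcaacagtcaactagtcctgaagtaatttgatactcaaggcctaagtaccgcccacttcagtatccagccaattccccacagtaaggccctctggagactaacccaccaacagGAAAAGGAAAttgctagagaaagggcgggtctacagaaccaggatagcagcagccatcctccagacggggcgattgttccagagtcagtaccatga
Ifitm1, chr7:140967826-140968125, plus strand: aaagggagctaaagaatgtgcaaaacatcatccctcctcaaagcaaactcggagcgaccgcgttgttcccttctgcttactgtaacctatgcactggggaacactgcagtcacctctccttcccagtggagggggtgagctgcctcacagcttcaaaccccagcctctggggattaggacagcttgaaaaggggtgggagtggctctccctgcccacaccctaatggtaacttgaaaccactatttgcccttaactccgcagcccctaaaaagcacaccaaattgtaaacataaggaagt

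All 7 genes had a RefSeq window. Ifit1 and Ifit3 each held 2 ISRE cores with the same letters, which began 104 and 85 bases before the start in Ifit1 and 156 and 122 bases before it in Ifit3. Ifitm2 held 1, beginning 46 bases before the start. Ifitm3 held 2, both after the start, at bases 2 and 19. The core was not found in the windows of Ifit2 (2 windows), Ifitm1 or Ifitm6. The GENCODE starts of Ifitm1 (chr7:140967221) and Ifitm6 (chr7:141017924) lie upstream of their windows, so the bases before those starts were not searched. The core was present in 3.44% of 32851 RefSeq windows of this length. Of 27 matched genes from the list of other interferon targets used below, 16 had it in a window. The GAS letters TTCNNNGAA, a STAT element, occurred in Ifit2, Ifitm3 and Ifitm6 (8.30% of all windows), and the Ifitm3 match overlaps its second ISRE core. The RUNX letters TGNGGT occurred in every member except Ifit3 (45.8% of all windows), and TGACAG, the MEIS letters, occurred only in Ifit1 (19.2% of all windows). A match is a description of letters and not a binding site.

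Several libraries stood apart. The library labelled AE+Meis2 replicate 1 had a Meis2 level of 13.1 FPKM and a Runx1t1 (ETO) level of 21.6 FPKM, against 38.2 and 81.5 FPKM of Meis2 and 223 and 218 FPKM of Runx1t1 in the other AE+Meis2 libraries. Runx1t1 was at 10.3 to 26.8 FPKM in the AE9a+Meis2 and AE9a libraries, so these Meis2 and Runx1t1 values went against its label. Other values did not. S100a9 was at 0 in this library, as in the other AE+Meis2 libraries, and at 466 FPKM or more in all AE9a+Meis2 and AE9a libraries. S100a8, another neutrophil marker, was at 11064, 1149 and 131098 FPKM in the AE+Meis2 libraries. Whether the 0 of S100a9 reflects the processing of that group or its cells was not tested. Its Eif2s3y value, given below, was near that of AE+Meis2 replicate 2. FPKM counts fragments relative to transcript length and to all mapped fragments of a library. In AE9a+Meis2 marrow Meis2 ranged over 604 to 1277 FPKM, and the AE9a marrows had 6.99 and 13.2 FPKM. Of 1543 genes from families silent in blood, AE9a+Meis2 replicate 3 listed 84.1% above 0 and AE9a replicate 1 listed 72.1%, against 3.37% to 6.61% in the other 6 libraries. Eif2s3y, on the Y chromosome, had 158, 176 and 7.06 FPKM in the AE+Meis2 libraries and no more than 0.574 FPKM in the other 5. Xist, a marker of female cells, had 1.93 and 5.79 FPKM in AE+Meis2 replicates 1 and 2. It had 82.4 FPKM or more in AE+Meis2 replicate 3 and in all AE9a+Meis2 and AE9a libraries. For AE+Meis2 replicates 1 and 2, differences from the other groups therefore cannot be told apart from the sex of the cells. In AE+Meis2 replicate 3, Ifit1, Ifit2 and Ifit3 were above every AE9a+Meis2 library. Ifitm2 and Ifitm3 were below them, and Ifitm1 and Ifitm6 within their range. The part of sex in these results was not tested. The neutrophil granule gene Ngp, a marker of the labelled tissue, was present in every library at 159.6 to 12369 FPKM.

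Ifit1 (chr19:34640871-34650009, GRCm38, plus strand) stood at 63.3, 12.8 and 22.9 FPKM in AE+Meis2 marrow, 4.91, 6.14 and 8.77 FPKM in AE9a+Meis2 marrow and 1.81 and 0.462 FPKM in AE9a marrow. The 3 groups did not overlap, AE+Meis2 was highest, and the library labelled AE+Meis2 replicate 1 stood highest of all. On the log2(FPKM + 1) scale, which understates changes of low values, Ifit1 differed by 1.88 ± 0.64 (SE) between AE9a+Meis2 and AE9a, by 1.89 ± 0.57 between AE+Meis2 and AE9a+Meis2, and by 3.77 ± 0.64 between AE+Meis2 and AE9a. For these comparisons of Ifit1, limma gave Benjamini-Hochberg adjusted p = 1, 0.565 and 0.238 over 12565 genes. Once the library labelled AE+Meis2 replicate 1 was left out, the Ifit1 log2 difference between AE+Meis2 and AE9a+Meis2 was 1.29.

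Ifit3 (chr19:34583531-34588731, plus strand) kept close to Ifit1. It stood at 27.7, 11.1 and 14.7 FPKM in AE+Meis2 marrow, 4.21, 4.00 and 10.9 FPKM in AE9a+Meis2 marrow and 2.80 and 0.764 FPKM in AE9a marrow. Again no group overlapped another, although AE9a+Meis2 replicate 3 at 10.9 FPKM came close to AE+Meis2 replicate 2 at 11.1 FPKM. The log2 differences of Ifit3 were 1.39 ± 0.56 for AE9a+Meis2 against AE9a, 1.38 ± 0.50 for AE+Meis2 against AE9a+Meis2 and 2.77 ± 0.56 for AE+Meis2 against AE9a, with limma adjusted p = 1, 0.660 and 0.340. The Ifit3 difference between AE9a+Meis2 and AE9a was 0.84 without AE9a replicate 2, and that between AE+Meis2 and AE9a+Meis2 was 1.03 once the library labelled AE+Meis2 replicate 1 was left out. Of all 50-base stretches of the longest Ifit3 transcript, 51.2% also occur in its neighbour Ifit3b, so the split of fragments between the pair is uncertain. Ifit3b itself, listed under I830012O16Rik, stood at 4.64, 1.69 and 4.89 FPKM in AE+Meis2 marrow, 0.602, 0.945 and 2.95 FPKM in AE9a+Meis2 marrow and 0.711 and 0.0399 FPKM in AE9a marrow, so its group means had the order of Ifit3.

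Ifit2 (chr19:34550694-34576419, plus strand) was the least clear of the Ifit genes. Its values were 31.6, 4.66 and 17.6 FPKM in AE+Meis2, 7.61, 11 and 9.02 FPKM in AE9a+Meis2, and 4.44 and 4.70 FPKM in AE9a. AE+Meis2 replicate 2 lay at the AE9a level, so AE+Meis2 overlapped both other groups, while AE9a+Meis2 lay above AE9a. The log2 differences were 0.86 ± 0.65, 0.57 ± 0.58 and 1.44 ± 0.65 in the same order of comparisons, with limma adjusted p = 1, 0.858 and 0.854. When the library labelled AE+Meis2 replicate 1 was dropped, the Ifit2 difference between AE+Meis2 and AE9a+Meis2 was 0.02 and that between AE+Meis2 and AE9a 0.88. When AE+Meis2 replicate 2 was dropped instead, they were 1.28 and 2.14.

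**Figure D1:**
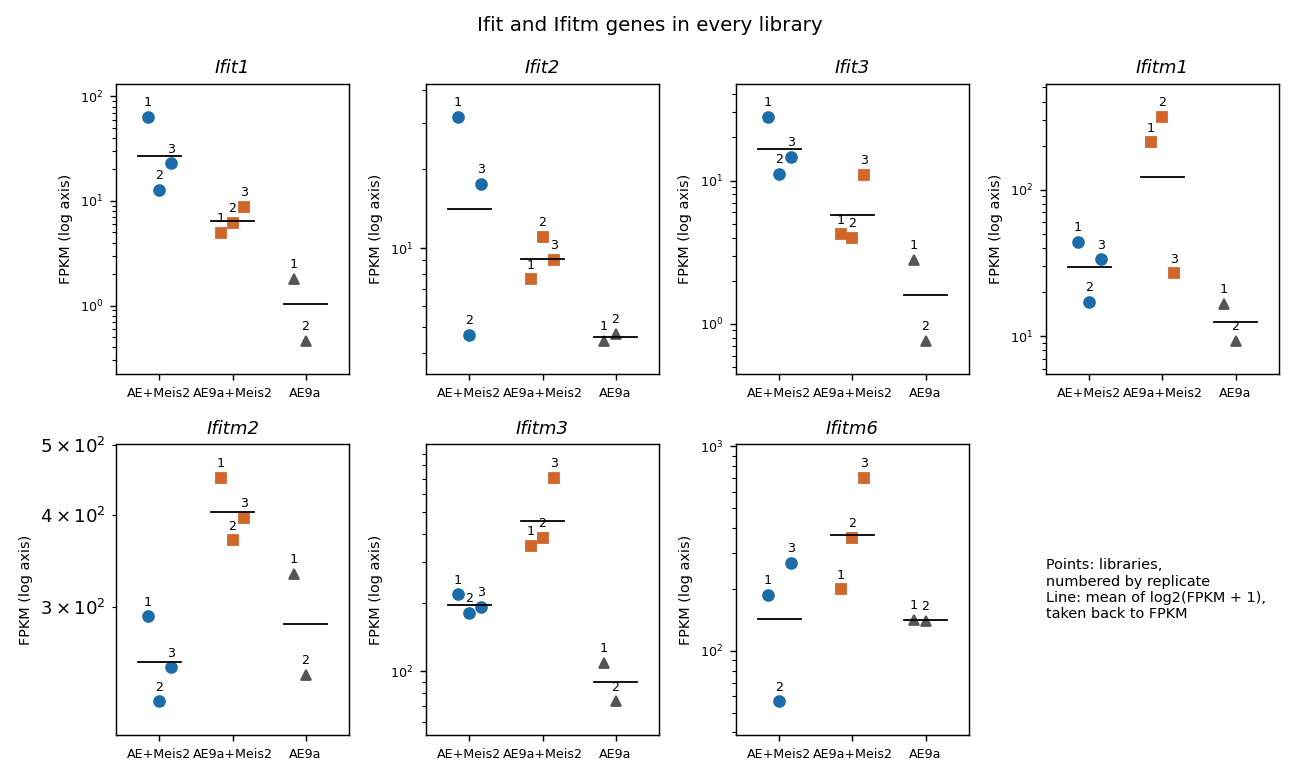
FPKM of the 7 genes (log axis, 1 panel a gene) in AE+Meis2, AE9a+Meis2 and AE9a marrow; points are libraries numbered by replicate and lines are group means of log2(FPKM + 1) taken back to FPKM. The Ifit means step down from AE+Meis2 to AE9a, whereas the 4 Ifitm means are highest in AE9a+Meis2.

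Ifitm3 (chr7:141009586-141010770, minus strand) had another order. It stood at 217, 179.7 and 191 FPKM in AE+Meis2 marrow, 353, 383 and 704 FPKM in AE9a+Meis2 marrow and 108 and 73.7 FPKM in AE9a marrow. No group overlapped another and the AE9a+Meis2 libraries were highest. The log2 difference between AE9a+Meis2 and AE9a was 2.34 ± 0.33, a 5.07-fold difference of FPKM + 1, with the smallest p of the 7 genes in this comparison (limma adjusted p = 0.202). AE+Meis2 was lower than AE9a+Meis2 by a log2 difference of -1.22 ± 0.30 (limma adjusted p = 0.436) and differed from AE9a by 1.12 ± 0.33 (limma adjusted p = 0.634). Without AE9a+Meis2 replicate 3, the highest library, the first of these was 2.03 and the second -0.91.

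Ifitm1 (chr7:140967221-140969825, plus strand) split the AE9a+Meis2 group. It stood at 44.2, 17.2 and 33.4 FPKM in AE+Meis2 marrow, 211, 314 and 26.8 FPKM in AE9a+Meis2 marrow and 16.7 and 9.32 FPKM in AE9a marrow. AE9a+Meis2 replicate 3 lay within the AE+Meis2 range, though that library was the highest of all for Ifitm3 and Ifitm6. The log2 difference was 3.19 ± 0.98 for AE9a+Meis2 against AE9a (limma adjusted p = 1), -2.01 ± 0.88 for AE+Meis2 against AE9a+Meis2 (limma adjusted p = 0.710) and 1.17 ± 0.98 for AE+Meis2 against AE9a (limma adjusted p = 0.950). The Ifitm1 difference between AE+Meis2 and AE9a+Meis2 was -3.08 without AE9a+Meis2 replicate 3 and -1.33 without AE9a+Meis2 replicate 2.

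Ifitm2 (chr7:140954837-140955987, minus strand) varied least, over a 2.02-fold range across the 8 libraries. It stood at 291, 223 and 248 FPKM in AE+Meis2 marrow, 450.2, 369.6 and 397 FPKM in AE9a+Meis2 marrow and 333 and 242 FPKM in AE9a marrow. AE9a+Meis2 was above both other groups without overlap, and those 2 groups overlapped each other. The log2 differences were 0.51 ± 0.22 for AE9a+Meis2 against AE9a, -0.68 ± 0.20 for AE+Meis2 against AE9a+Meis2 and -0.17 ± 0.22 for AE+Meis2 against AE9a (limma adjusted p = 1, 0.557 and 0.962). The first of these was 0.28 without AE9a replicate 2 and 0.19 with quantile scaling. Ifitm2 was the only member with a lower mean in AE+Meis2 marrow than in AE9a marrow, and that sign turned to 0.0579 without AE9a replicate 1. Of its exon bases, 40.9% are shared with the annotated gene Gm45717, so part of its level is uncertain.

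Ifitm6 (chr7:141015699-141017924, minus strand) stood at 189, 56.7 and 269.6 FPKM in AE+Meis2 marrow, 199.9, 356 and 701 FPKM in AE9a+Meis2 marrow and 142 and 141 FPKM in AE9a marrow. AE+Meis2 spanned the AE9a values and overlapped AE9a+Meis2, whose lowest library stood above AE9a. The Ifitm6 log2 differences were 1.37 ± 0.72 for AE9a+Meis2 against AE9a, -1.36 ± 0.65 for AE+Meis2 against AE9a+Meis2 and 0.01 ± 0.72 for AE+Meis2 against AE9a (limma adjusted p = 1, 0.732 and 0.999). The first was 0.91 without AE9a+Meis2 replicate 3, and the second was -0.90 without that library and -0.70 without AE+Meis2 replicate 2. The last has a 95% interval from -1.68 to 1.71, and its sign depends on the scaling and on which library is left out.

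Fewer cells of a type and less RNA per cell cannot be told apart in these bulk samples. The FPKM of the 10 monocyte markers summed to 603, 332 and 1272 in AE+Meis2, to 2778, 1095 and 1140 in AE9a+Meis2, and to 623 and 548 in AE9a, and none was at 0 in any library. AE+Meis2 replicate 3 thus lay above 2 of the AE9a+Meis2 libraries. All 10 had a higher mean log2 value in AE9a+Meis2 than in AE9a (median log2 difference 1.02) and 8 of 10 a lower one in AE+Meis2 than in AE9a+Meis2 (median -0.89), and none passed the adjusted threshold in limma. Other marker lists were also compared in AE+Meis2 against AE9a+Meis2, where 54.9% of all genes had a higher mean. Higher were 6 of 6 platelet markers, 5 of 5 of endothelium and stroma and 6 of 10 of macrophages (medians 0.86, 1.02 and 0.89). So were 7 of 8 T and NK cell markers, 9 of 11 of neutrophils and 7 of 9 of stem and progenitor cells (medians 0.46, 0.39 and 0.28). Of B cell markers 4 of 6 were higher and of erythroid markers 3 of 8 (medians 0.04 and -0.15). All 5 of 5 plasmacytoid dendritic markers were lower (median -0.41). In AE9a+Meis2 against AE9a, 4 of 5 plasmacytoid dendritic and 5 of 8 T and NK cell markers were higher (49.8% of all genes). Fewer were higher of neutrophils (5 of 11), erythroid cells (3 of 8), stem and progenitor cells (3 of 9) and macrophages (3 of 10). The same held for platelets (2 of 6), B cells (1 of 6) and endothelium and stroma (1 of 5). Medians of these lists with fewer higher ran from -0.99 to -0.21. The part of these markers in the member results was not tested. The 11 neutrophil markers summed to between 1827 and 192188 FPKM in AE+Meis2, between 2554 and 61324 FPKM in AE9a+Meis2, and to 8043 and 32001 FPKM in AE9a, and the groups overlapped. In that list S100a9 was listed at 0 in every AE+Meis2 library, where S100a8 was at 1149 FPKM or more. The sums therefore lack S100a9 in AE+Meis2 only.

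None of the 21 member comparisons (7 genes, 3 comparisons) passed the adjusted threshold of 0.05 in limma. Few genes did: 6 of 12565 for AE9a+Meis2 against AE9a (0.0478%), 5 for AE+Meis2 against AE9a+Meis2 (0.0398%) and 4 for AE+Meis2 against AE9a (0.0318%). At an unadjusted p under 0.05, Ifit1, Ifit3, Ifitm1 and Ifitm3 were higher in AE9a+Meis2 than in AE9a, 4 of 7 members against 1.93% of all genes. Between AE+Meis2 and AE9a+Meis2, Ifit1 and Ifit3 were higher (3.10% of all genes) and Ifitm2 and Ifitm3 lower (4.05% of all genes). Between AE+Meis2 and AE9a, Ifit1, Ifit3 and Ifitm3 were higher (2.95% of all genes). Several of these rested on 1 library. In AE9a+Meis2 against AE9a, Ifit1, Ifit3 and Ifitm1 were not under 0.05 without AE9a replicate 2, Ifit1 and Ifit3 not without AE9a+Meis2 replicate 3, and Ifit3 not without AE+Meis2 replicate 3, which left Ifitm3 as the only member under 0.05 whichever library was left out. In AE+Meis2 against AE9a+Meis2, Ifit3 was not under 0.05 once replicate 1 of either group or replicate 2 of AE9a+Meis2 was left out, and in AE+Meis2 against AE9a, Ifitm3 was not without AE9a replicate 2. With 200 genes changed in simulated data, a log2 change of 2 was recovered for 61.5%, 61.0% and 59.0% of them in these 3 comparisons. A log2 change of 1 was recovered for 0%. The changed genes were picked above a floor of mean level and without a large spread, and noise was normal and independent. These rates therefore need not hold for the members.

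The libraries of AE9a+Meis2 lay above both AE9a libraries for 7 of 7 members, against 13.1% of all genes. That count was also 7 without AE9a+Meis2 replicate 3 and AE9a replicate 1, the libraries in which silent families were above 0, and it was 6 with quantile scaling. All 7 log2 differences were above 0, as were those of 49.8% of all genes. In AE+Meis2 against AE9a+Meis2 the families parted. Ifit1 and Ifit3 were higher without overlap and Ifitm2 and Ifitm3 lower without overlap, 4 of 7 members against 13.5% of all genes in either direction. Without the library labelled AE+Meis2 replicate 1 there were also 4. Ifit2 had a positive difference and Ifitm1 and Ifitm6 negative ones, with overlapping libraries. In AE+Meis2 against AE9a, Ifit1, Ifit3, Ifitm1 and Ifitm3 were higher without overlap (9.96% of all genes). The 3 comparisons share libraries, so their values are not independent of one another.

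**Figure D2:**
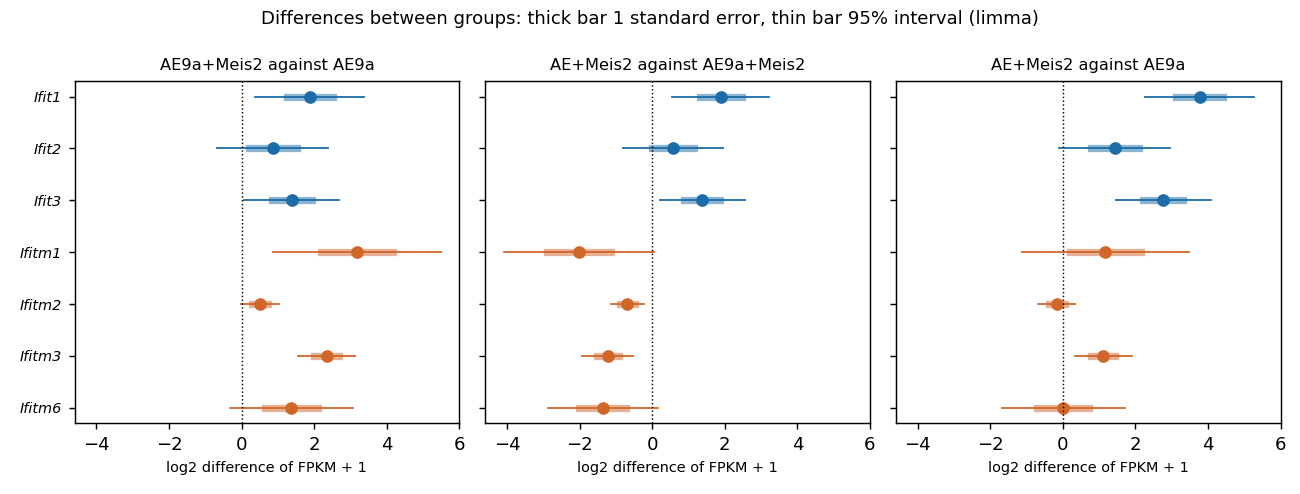
Log2 difference of FPKM + 1 for each gene in the 3 comparisons; points are limma estimates, thick bars 1 standard error, thin bars 95% intervals. All 7 genes lie above 0 in AE9a+Meis2 against AE9a, and in AE+Meis2 against AE9a+Meis2 the 3 Ifit genes lie above 0 and the 4 Ifitm genes below it.

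No single order of the group means held for most members. Ifit1, Ifit2 and Ifit3 ran AE+Meis2, AE9a+Meis2, AE9a from high to low, an order held by 21.8% of all genes tested. The means of Ifitm1, Ifitm3 and Ifitm6 ran AE9a+Meis2, AE+Meis2, AE9a, an order held by 13.4%. Ifitm2 ran AE9a+Meis2, AE9a, AE+Meis2, an order held by 14.7%. Among 37 other interferon targets, 34 had the order of the Ifit genes, so it was the Ifitm genes that broke from the order common among interferon targets. The 3 other targets with another order were Mx1, Zbp1 and Phf11b, all highest in AE9a+Meis2 and lowest in AE9a, like Ifitm1, Ifitm3 and Ifitm6.

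Each member was also tested across the 3 groups at once with an exact permutation test on the F statistic over all 560 arrangements of the 8 libraries. Ifit1, Ifit3 and Ifitm3 gave an exact p of 0.00357, the smallest that these arrangements can give. Ifitm2 gave an exact p of 0.0393, Ifitm1 0.104, Ifit2 0.232 and Ifitm6 0.236. Thus 4 of 7 members had an exact p under 0.05, against 5.59% of all genes. Adjusted over all genes tested, the smallest permutation p became 0.774 and none of the 7 passed. Group membership held 89.6% of the variance of log2(FPKM + 1) for Ifitm3, 84.2% for Ifit1 and 79.4% for Ifit3, but 41.8% for Ifit2.

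Whether 1 member departed from another was tested on the difference of their log2(FPKM + 1) values within a library, for all 21 pairs of members, with the same exact test and Benjamini-Hochberg adjustment over the 21 pairs. FPKM of Ifitm3 was 3.43, 14.1 and 8.32 times that of Ifit1 in AE+Meis2, 72.0, 62.4 and 80.3 times in AE9a+Meis2, and 60.0 and 159 times in AE9a. Every AE+Meis2 library was lower than all other libraries in this ratio (exact p = 0.00714, adjusted p = 0.0250). With log2(FPKM + 0.1) in place of log2(FPKM + 1), this ratio did not have an adjusted p under 0.05. For Ifitm2 over Ifit3 the ratio was 10.5, 20 and 16.9 in AE+Meis2, 107, 92.4 and 36.4 in AE9a+Meis2, and 119 and 317 in AE9a (exact p = 0.00714, adjusted p = 0.0250). AE+Meis2 was again the low group.

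Within the families the ratios also differed between groups. Ifit2 was at 0.499, 0.365 and 0.767 times the FPKM of Ifit1 in AE+Meis2, at 1.55, 1.80 and 1.03 times in AE9a+Meis2, and at 2.46 and 10.2 times in AE9a (exact p = 0.00357, adjusted p = 0.0250). Ifit1 was thus above Ifit2 in every AE+Meis2 library and below it in the other 5. Ifitm3 was at 0.746, 0.807 and 0.769 times the FPKM of Ifitm2 in AE+Meis2, at 0.785, 1.04 and 1.77 times in AE9a+Meis2, and at 0.325 and 0.304 times in AE9a (exact p = 0.00714, adjusted p = 0.0250). In this ratio the AE9a libraries were low and the other groups overlapped.

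In all, 8 of 21 ratios had an exact p under 0.05 and 6 an adjusted p under 0.05. The other 2 of the 6 were Ifitm2 over Ifit1 and Ifitm3 over Ifit3. With log2(FPKM + 0.1), 5 ratios passed, Ifitm6 over Ifit1 among them but neither Ifitm3 over Ifit1 nor Ifitm3 over Ifit3. The ratio of Ifit3 to Ifit1, at 0.438 to 1.65 in all 8 libraries, did not pass (exact p = 0.121, adjusted p = 0.173). Leaving out AE9a+Meis2 replicate 3 gave 11 ratios with an adjusted p under 0.05, and leaving out any other single library gave 0, with 7 to 9 at an unadjusted exact p under 0.05. With 7 libraries the smallest exact p found was 0.00952 or 0.0143, against 0.00357 with all 8.

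**Figure D3:**
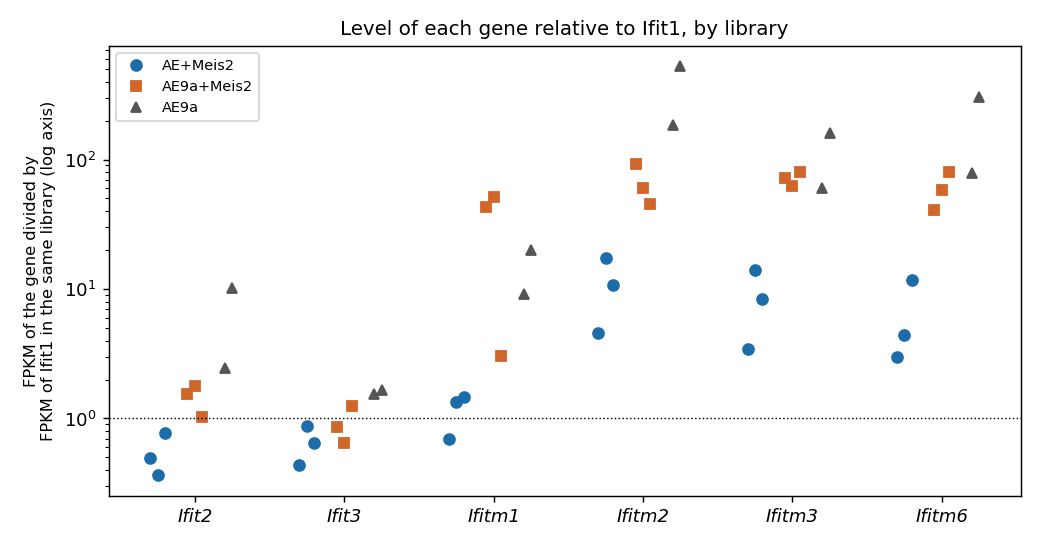
FPKM of each other gene divided by FPKM of Ifit1 in the same library (log axis), by group; each point is a library and the dotted line marks equal FPKM. For Ifit2, Ifitm1, Ifitm2, Ifitm3 and Ifitm6 the 3 AE+Meis2 libraries lie below all others, and Ifit3 stays near the line in every library.

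The Ifitm genes were the more abundant family per transcript length. In AE+Meis2 the mean levels in FPKM were 254 ± 34.6 (SD, n = 3) for Ifitm2, 196 ± 19.3 for Ifitm3 and 172 ± 107 for Ifitm6, while Ifit1 was at 33.0 ± 26.7, Ifitm1 at 31.6 ± 13.6, Ifit2 at 17.9 ± 13.5 and Ifit3 at 17.8 ± 8.72. In AE9a+Meis2 the first 3 places went to Ifitm3 at 480.3 ± 195 FPKM, Ifitm6 at 419 ± 256 and Ifitm2 at 406 ± 40.9 (SD, n = 3), which overlap one another, followed by Ifitm1 at 184 ± 145. The AE9a means were 288 ± 64.1 FPKM for Ifitm2, 141 ± 0.822 for Ifitm6, 91.0 ± 24.5 for Ifitm3 and 13 ± 5.19 for Ifitm1 (SD, n = 2). Within each of the 8 libraries, Ifitm2, Ifitm3 and Ifitm6 were each above all 3 Ifit genes.

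The remaining genes of the families were low. Ifit1bl1, listed as Gm14446, stood at 11.8, 1.82 and 3.47 FPKM in AE+Meis2 marrow, 0.668, 1.97 and 1.99 FPKM in AE9a+Meis2 marrow and 1.41 and 2.74 FPKM in AE9a marrow, with overlapping groups. Ifitm5, whose protein is known from bone-forming cells, was at 0.874 to 1.58 FPKM and Ifitm7 at 0.105 to 3.85 FPKM across the 8 libraries. Ifit1bl2 (listed as 2010002M12Rik) and Ifitm10 stayed at or below 1.71 FPKM and were not tested, because a gene had to reach 1 FPKM in 2 libraries. In AE9a+Meis2 against AE9a, the 4 genes tested, Ifit3b among them, had log2 differences from -0.29 to 0.79.

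Across the 8 libraries, Pearson's r of log2(FPKM + 1) was 0.97 between Ifit1 and Ifit3, 0.84 between Ifit1 and Ifit2 and 0.74 between Ifit2 and Ifit3. Between an Ifit and an Ifitm gene it ran from -0.14 to 0.44, and among the Ifitm genes from 0.39 to 0.70. These correlations describe 8 libraries that fall into 3 groups, so group differences and the unknown depths are part of them. The 5 genes most like Ifit1 by this measure (r of 0.94 to 0.96) were Isg15, the ubiquitin-like interferon product, Eif2ak2, the kinase PKR, the guanylate-binding proteins Gbp2 and Gbp2b, and Dhx58, an RNA helicase of the RIG-I family. Ifit3 was most like Ifi205, Ifi203, Rtp4, Dhx58 and Isg15 (r of 0.95 to 0.97).

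Ifit2 had other nearest genes, Eid3, Ccrl2, Rit1, the chemokine Cxcl10 and Sap30l (r of 0.93 to 0.95). None of these was among the 5 genes most like an Ifitm gene. Ifitm3 was most like Trex1, the cytosolic DNA exonuclease (r = 0.94), Gpr137b-ps, the stress factor Atf3, Meis2 itself (r = 0.90) and Igfbp6. Ifitm2 was most like Kif9, Mfsd7a, F10 (coagulation factor X), Tmem86a and Irf5 (r of 0.95 to 0.98). Ifitm1 was most like Deptor, an inhibitor of mTOR, Laptm4b, Adam2, Glis3 and Gorasp2 (r of 0.90 to 0.96), and Ifitm6 like Rhbdf2, Klrb1f, Snf8, Gcat and Naaa (r of 0.95 to 0.96).

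The interferon pathway was followed from ligand to target. Of 15 interferon genes only Ifna14 was tested, at 1.12 FPKM in AE9a+Meis2 replicate 3, 1.62 FPKM in AE9a replicate 1 and 0 in the other 6 libraries. AE9a+Meis2 replicate 3 listed 11 of the 15 above 0 and AE9a replicate 1 listed 7, the 2 libraries in which silent gene families were above 0, and the rest listed 1 to 3. Among 7 receptor chains and kinases, none passed in any comparison, and 3 of 7 (Ifnar2, Ifngr1 and Tyk2) had the order of Ifitm3. Tyk2 stood at 16.2, 27.5 and 21.3 FPKM in AE+Meis2 marrow, 26.8, 25.8 and 28.0 FPKM in AE9a+Meis2 marrow and 18.8 and 16.7 FPKM in AE9a marrow.

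Among transcription factors of the pathway, Stat2, Irf9, Irf1 and Irf7 had the order of the Ifit genes. Irf9, the DNA-binding part of the complex that recognises the ISRE, stood at 52.8, 124 and 61.7 FPKM in AE+Meis2 marrow, 40.7, 45.4 and 59.3 FPKM in AE9a+Meis2 marrow and 25.3 and 22.2 FPKM in AE9a marrow. AE+Meis2 and AE9a+Meis2 overlapped and both lay above AE9a (log2 difference 1.60 ± 0.37 for AE+Meis2 against AE9a, limma adjusted p = 0.450). The highest Irf9 library was AE+Meis2 replicate 2, which was the lowest AE+Meis2 library for all 7 members. Irf7, which drives interferon genes, stood at 135, 77.5 and 58.6 FPKM in AE+Meis2 marrow, 32.5, 41.9 and 108 FPKM in AE9a+Meis2 marrow and 14.8 and 4.96 FPKM in AE9a marrow.

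Irf5 and Irf8, factors of monocytes and dendritic cells, had the order of Ifitm2. Irf8 stood at 8.14, 10.2 and 16 FPKM in AE+Meis2 marrow, 94.6, 59.2 and 50.2 FPKM in AE9a+Meis2 marrow and 19.9 and 16.8 FPKM in AE9a marrow. AE+Meis2 was the lowest group and AE9a+Meis2 the highest, without overlap. The log2 difference of Irf8 was -2.47 ± 0.32 for AE+Meis2 against AE9a+Meis2, with limma adjusted p = 0.0797. For Irf5 the same comparison gave -1.93 ± 0.37 (limma adjusted p = 0.299).

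Among regulators that restrain the pathway, Usp18, which removes ISG15 from proteins and dampens signalling at the interferon receptor, stood at 63.4, 26.0 and 14.5 FPKM in AE+Meis2 marrow, 8.77, 15.0 and 26.7 FPKM in AE9a+Meis2 marrow and 3.68 and 1.91 FPKM in AE9a marrow. Its means had the order of the Ifit genes. Socs1 and Socs3, inhibitors of JAK kinases, did not share it. The 3 genes listed for handling of Ifitm proteins, the palmitoyltransferase Zdhhc20, the ubiquitin ligase Nedd4 and Zmpste24, which human IFITM proteins are known to work with, had log2 differences from -0.83 to 0.83 and none passed in limma in any comparison.

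Of 37 other interferon targets, 37 had a higher mean log2 value in AE9a+Meis2 than in AE9a (49.8% of all genes), with a median log2 difference of 1.03. The median was 1.39 for the 3 Ifit genes, 1.86 for the 4 Ifitm genes and -0.00 for all genes. Libraries did not overlap for 29 of the 37, against 13.1% of all genes. In AE+Meis2 against AE9a+Meis2 the 37 genes had a median of 0.76 and 34 differences above 0, against 54.9% of all genes. Libraries did not overlap there for only 13 of the 37, all higher, against 13.5% of all genes in either direction. There the median was 1.38 for the Ifit genes, -1.29 for the Ifitm genes and 0.04 for all genes. None of the 37 passed the adjusted threshold in limma in any comparison. In AE+Meis2 against AE9a, 32 of the 37 were higher at an unadjusted p under 0.05 (2.95% of all genes), with a median log2 difference of 1.97. All 37 differences were above 0 there, against 55.9% of all genes.

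Zbp1, which senses nucleic acids in the Z conformation and is 1 of the 3 targets with the order of Ifitm3, stood at 36.4, 24.0 and 23.2 FPKM in AE+Meis2 marrow, 19.1, 25.3 and 45.5 FPKM in AE9a+Meis2 marrow and 5.99 and 2.63 FPKM in AE9a marrow. Its AE+Meis2 and AE9a+Meis2 values overlapped, unlike those of Ifitm3. Ddx58, the RNA sensor RIG-I, had the order of the Ifit genes at 36.4, 39.3 and 32.9 FPKM in AE+Meis2, 6.59, 12.1 and 16.3 FPKM in AE9a+Meis2, and 6.79 and 4.87 FPKM in AE9a. Ifih1, the RNA sensor MDA5, stood at 21.2, 26.8 and 16.6 FPKM in AE+Meis2 marrow, 11.6, 8.01 and 11.2 FPKM in AE9a+Meis2 marrow and 3.78 and 3.38 FPKM in AE9a marrow, with limma adjusted p = 0.108 for AE+Meis2 against AE9a. In neither gene was the library labelled AE+Meis2 replicate 1 the highest, as it was for Ifit1, Ifit2 and Ifit3.

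**Figure D4:**
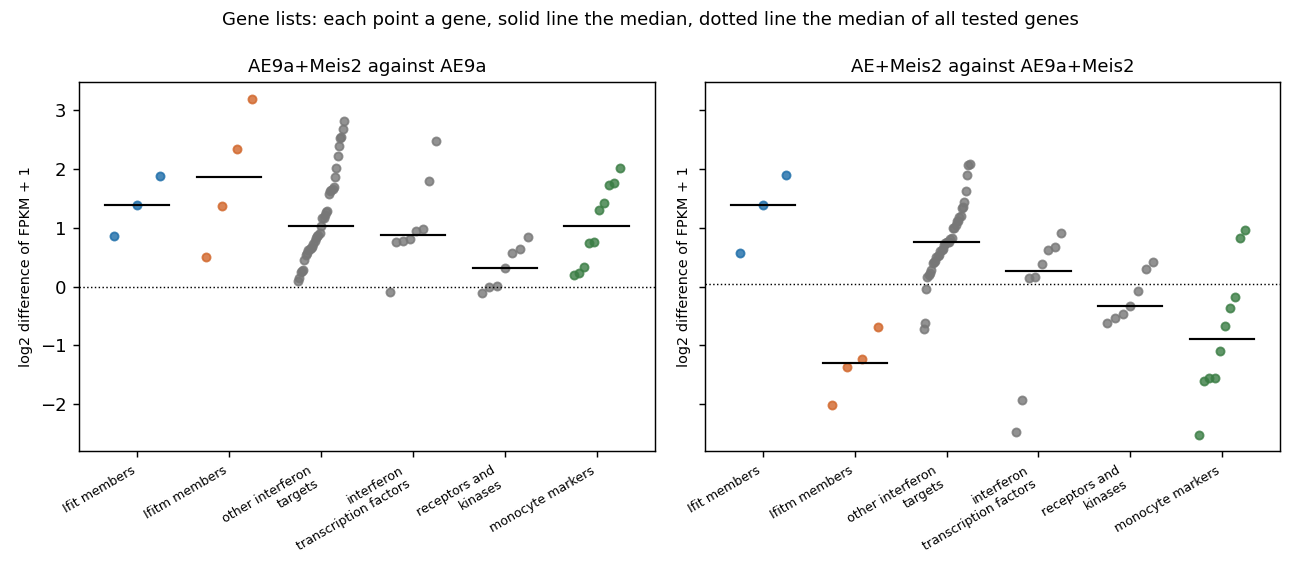
Log2 difference of FPKM + 1 for the members and for the pathway and monocyte lists, in AE9a+Meis2 against AE9a and in AE+Meis2 against AE9a+Meis2; each point is a gene, solid lines are list medians and the dotted line is the median of all genes tested. In the second comparison the 4 Ifitm points lie at -2.01 to -0.68, and 8 of 10 monocyte markers lie below 0, while 34 of 37 other interferon targets lie above 0.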

How the data were processed

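Illumina TruSeq RNA libraries were made from marrow RNA, per the labels' protocols. The authors deposited FPKM for 23997 genes in 8 libraries. Per the submitters' processing notes, they used TopHat, Cufflinks and Cuffdiff on build mm10. No version, annotation or scaling across libraries is given in the sources used here. The table holds no counts, so depth is unknown. Values were taken to log2(FPKM + 1), and genes with at least 1 FPKM in at least 2 libraries (12565) were fitted with limma 3.58.1 in R 4.3.3, with 1 coefficient per group over all 8 libraries, a trended prior and Benjamini-Hochberg adjustment over all genes tested, at a threshold of 0.05. All 7 members passed that filter. Single values used exact permutation tests, two-sided by construction. The fit was tested on simulated data. Coordinates are those of GENCODE on GRCm38 (mm10), and promoter windows are from RefSeq. Groups and replicate numbers come from the sample titles. Same-numbered libraries of different groups correlated at -0.03 to 0.13 after removal of group means, against -0.10 to 0.08 for other pairs, so the numbers were not taken to pair samples. Members, lists and tests were chosen with earlier results of these data known. The text names all 7 members, the other family genes, the members of each pathway list with the smallest p and the 5 genes most like each member. Python 3.11.15 with NumPy 2.4.6, pandas 2.3.3 and, for plots, matplotlib 3.10.9 did the rest. 1 gene of the pathway lists is not reported here.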

Additional observations from a re-analysis of the deposited data

How the results depend on the processing

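With 8 libraries, small differences could not pass, and depth is unknown. Of 21 member differences, 19 kept their sign in all 20 other settings. The exceptions were both in AE+Meis2 against AE9a. Ifitm2 was 0.012 with array quality weights and 0.0579 without AE9a replicate 1, alone or with AE9a+Meis2 replicate 3. Ifitm6 was -0.40 with quantile scaling, -0.0693 with median scaling, -0.45 with the replicate block and -0.44 to 0.67 with 1 library left out, below 0 without AE+Meis2 replicate 1 or 3; the cause was not tested. The block brought no member past the threshold.

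Array quality weights took 8 member differences past it, Ifitm3 against AE9a in the AE9a+Meis2 group (adjusted p = 0.0436), Ifit1, Ifit2, Ifit3, Ifitm1 and Ifitm3 in AE+Meis2 against AE9a+Meis2 (0.00207 to 0.0237) and Ifit1 and Ifit3 in AE+Meis2 against AE9a (0.0128 and 0.0316). The weights were 5.77 for AE+Meis2 replicate 1, whose Meis2 and Runx1t1 values go against its label, and 8.33 for AE9a+Meis2 replicate 2. They were 0.223 to 0.962 elsewhere, and their estimation stopped before converging.

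Genes called for AE9a+Meis2 against AE9a (6) were 3 with small RNAs left out, 13 with weights, 2 with the replicate block and 3 without AE9a+Meis2 replicate 3 and AE9a replicate 1 together, and 2 to 9 with 1 library left out. For AE+Meis2 against AE9a+Meis2 (5) they were 3, 1583 and 5 in the first 3 of these settings and 6 to 23 with 1 library left out, the highest without AE+Meis2 replicate 3. For AE+Meis2 against AE9a (4) they were 0 with small RNAs left out, 84 with weights, 0 with the block, 1 with no filter, 2 with only the 2 groups fitted and 1 to 10 with 1 library left out. Where AE9a kept 1 library, it was assumed to vary like the others. Ratios with an adjusted p under 0.05 (6) were 5 to 7 with another pseudocount or scaling, 0 without the same 2 libraries together (chosen after seeing the data), and 0 to 11 with 1 library left out. In these settings 6 or 7 members kept their order of group means.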

Other observations

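Among the tested genes next to the Ifit and Ifitm clusters, B4galnt4 (chr7:141061104-141072400, GRCm38), a glycosyltransferase gene beyond Ifitm6 that was singled out after its values were seen, had the order of Ifitm2. Its log2 difference was 0.96 ± 0.29 for AE9a+Meis2 against AE9a, -0.99 ± 0.26 for AE+Meis2 against AE9a+Meis2 and -0.03 ± 0.29 for AE+Meis2 against AE9a (exact permutation p = 0.0357 over the 3 groups).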
